A study of Rattus norvegicus with 9 samples.

Results

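The genes described here are 9 markers of the synthetic state of vascular smooth muscle, the growing and matrix-producing state these cells take up in culture and after injury. They are Spp1 (osteopontin), S100a4, Vim (vimentin), Mgp (matrix Gla protein), Thbs1 (thrombospondin 1), Lgals3 (galectin 3), Myh10 (non-muscle myosin heavy chain IIB), Tpm4 (tropomyosin 4) and Tnc (tenascin C). They were taken by gene symbol from the deposited table of 32623 rat genes. Each symbol named 1 row, no other row overlapped any of them, and all 9 were among the 11197 genes tested.

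The data are RNA-seq of wild-type rat primary aortic smooth muscle cells of passages 4 to 8. There were 3 libraries in each of 3 groups. The PDGF-BB+PTUPB group received 0.5 µM PTUPB, a dual inhibitor of cyclooxygenase-2 and soluble epoxide hydrolase, for 2 h and then platelet-derived growth factor BB for 24 h. The PDGF-BB group received the growth factor for 24 h, and the Control group received an equal volume of DMSO. The growth factor dose is 10 ng/mL in the sample labels and 20 ng/mL in the series design. In all 3 groups cells were grown in 20% serum, kept for 12 h without serum and treated in 2% serum, and none of the 9 libraries received PTUPB alone. Whether the 3 libraries in each group stem from separate animals or cultures is not stated, so a p-value here speaks of the spread among these libraries, and that spread may be technical.

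A contractile smooth muscle cell is filled with smooth muscle actin, smooth muscle myosin and calponin, and divides little. On growth factor exposure such cells can shift to a synthetic state, in which the contractile proteins decline and vimentin filaments, non-muscle myosin and secreted matrix proteins become prominent. Osteopontin, thrombospondin 1, tenascin C and matrix Gla protein are secreted. Vimentin, non-muscle myosin IIB and tropomyosin 4 belong to the cell interior, and galectin 3 is found in both places. S100A4 is a calcium-binding protein.

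Upstream sequence from RefSeq (build GRCr8) was at hand for 7 of the 9 genes, and Mgp and Lgals3 had none in the table used. The 250 bases before the annotated start are shown for the 3 genes that were higher with PDGF-BB, 5′ to 3′ on the gene's strand. Capitals mark motif matches on either strand. The TATA box was searched with the letters TATAAA, and the GC box with the letters GGGCGG. For AP-1, a pair of Fos and Jun proteins, the letters were TGANTCA. For RUNX factors the letters searched were TGTGGT, and the CArG box of serum response factor was searched too. No matches overlapped in these windows.
Spp1, chr14:5619805-5620054, minus strand: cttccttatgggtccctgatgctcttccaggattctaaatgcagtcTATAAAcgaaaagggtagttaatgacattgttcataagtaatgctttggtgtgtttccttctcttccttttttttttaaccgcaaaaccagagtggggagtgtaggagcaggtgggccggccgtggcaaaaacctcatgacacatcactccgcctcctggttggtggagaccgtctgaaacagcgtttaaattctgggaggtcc
S100a4, chr2:178388279-178388528, plus strand: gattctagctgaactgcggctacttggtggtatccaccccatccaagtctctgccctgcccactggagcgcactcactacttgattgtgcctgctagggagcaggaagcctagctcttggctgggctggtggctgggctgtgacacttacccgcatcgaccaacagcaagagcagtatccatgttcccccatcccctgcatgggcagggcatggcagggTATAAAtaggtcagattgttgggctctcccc
Vim, chr17:81577011-81577260, plus strand: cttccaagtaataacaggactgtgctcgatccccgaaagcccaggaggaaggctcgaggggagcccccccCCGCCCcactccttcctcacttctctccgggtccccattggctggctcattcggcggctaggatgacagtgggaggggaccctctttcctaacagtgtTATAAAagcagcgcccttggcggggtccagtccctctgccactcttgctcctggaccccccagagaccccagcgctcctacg

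Counting from -1 at the last base before the start, the TATA box letters began at position -31 in S100a4, -82 in Vim and -204 in Spp1. They were also in the Tnc window, at -208, and in 12.9% of the 33469 rat windows of this length. The GC box letters, found in 30.5% of all windows, were present in the windows of Vim, Thbs1, Myh10, Tnc and, in 5 places, Tpm4. The AP-1 letters, the RUNX letters TGTGGT and the CArG letters, found in 6.34%, 14.5% and 1.5% of all windows, were in none of the 7. Other spellings of these sites, such as TGCGGT for RUNX, were not searched for. These matches describe letters only.

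Counts summed to 12729187 to 16911050 per library, so that 3 counts correspond to 0.177 to 0.236 CPM (counts scaled to the library total), and the 9 genes together took 1.26% to 1.99% of the counts. Levels below are FPKM, which is counts scaled to exonic length and to the library total. This puts all genes on the same scale, but how fully the reads of each gene were counted is not known. Comparisons of level between genes are therefore rough. Changes are log2 fold changes ± SE from edgeR, on counts scaled by TMM (trimmed mean of M values), and a gene was called at a Benjamini-Hochberg adjusted p under 0.05 over all tested genes. Long genes read low in Control replicate 2 and PDGF-BB replicate 3, relative to the other libraries of their group. Across genes, departure from the other libraries of the group and exonic length had a Spearman correlation of -0.389 in Control replicate 2 and -0.381 in PDGF-BB replicate 3. The correlation was 0.348 in Control replicate 1 and 0.35 in PDGF-BB replicate 2. Each departure is relative to the same group, so these values alone do not show which library is off. Where leaving out Control replicate 2, PDGF-BB replicate 3 or both changed the call of any of the 9 genes, a value from such a fit is given beside that result. In bulk RNA, fewer cells of a type and less RNA per cell cannot be told apart.

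The smooth muscle label was checked against 8 markers, of which 7 had an FPKM of at least 1 in 3 or more libraries. Tagln (transgelin) lay between 1063 and 1845 FPKM and Acta2 (smooth muscle actin) between 454 and 779.9 FPKM over the 9 libraries. Myh11, the smooth muscle myosin heavy chain, was low at 2.73 to 6.49 FPKM, and Des (desmin) did not exceed 0.18 FPKM. Spp1 and Lgals3 are also macrophage products, and of 12 macrophage markers the leukocyte gene Ptprc, the scavenger receptor Cd163 and the adaptor Tyrobp had 0 counts in all libraries. Cd14, Cd68 and Lyz2 were detected, and the summed FPKM of the macrophage list was 23.2 to 24.1 with PDGF-BB+PTUPB, 17.4 to 19.1 with PDGF-BB and 17.5 to 26.4 in Control. Of the endothelial markers Egfl7 alone was detected, while Cdh5, Kdr, Emcn, Cldn5 and Tie1 had 0 counts, and of 6 Schwann cell markers 0 were detected. A count of 0 in this table is weak evidence of absence, since Fn1 (fibronectin) is also listed at 0 in every library and the non-muscle myosin gene Myh9 read 0.26 to 0.51 FPKM, although cultured smooth muscle cells are known to express both. Of 10 adventitial fibroblast markers 8 were detected. Their summed FPKM was 1630 to 1870 with PDGF-BB+PTUPB, 1090 to 1470 with PDGF-BB and 1560 to 2560 in Control, the order in which the Mgp group means also stood, and its part in the Mgp result was not tested.

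**Figure D1:**
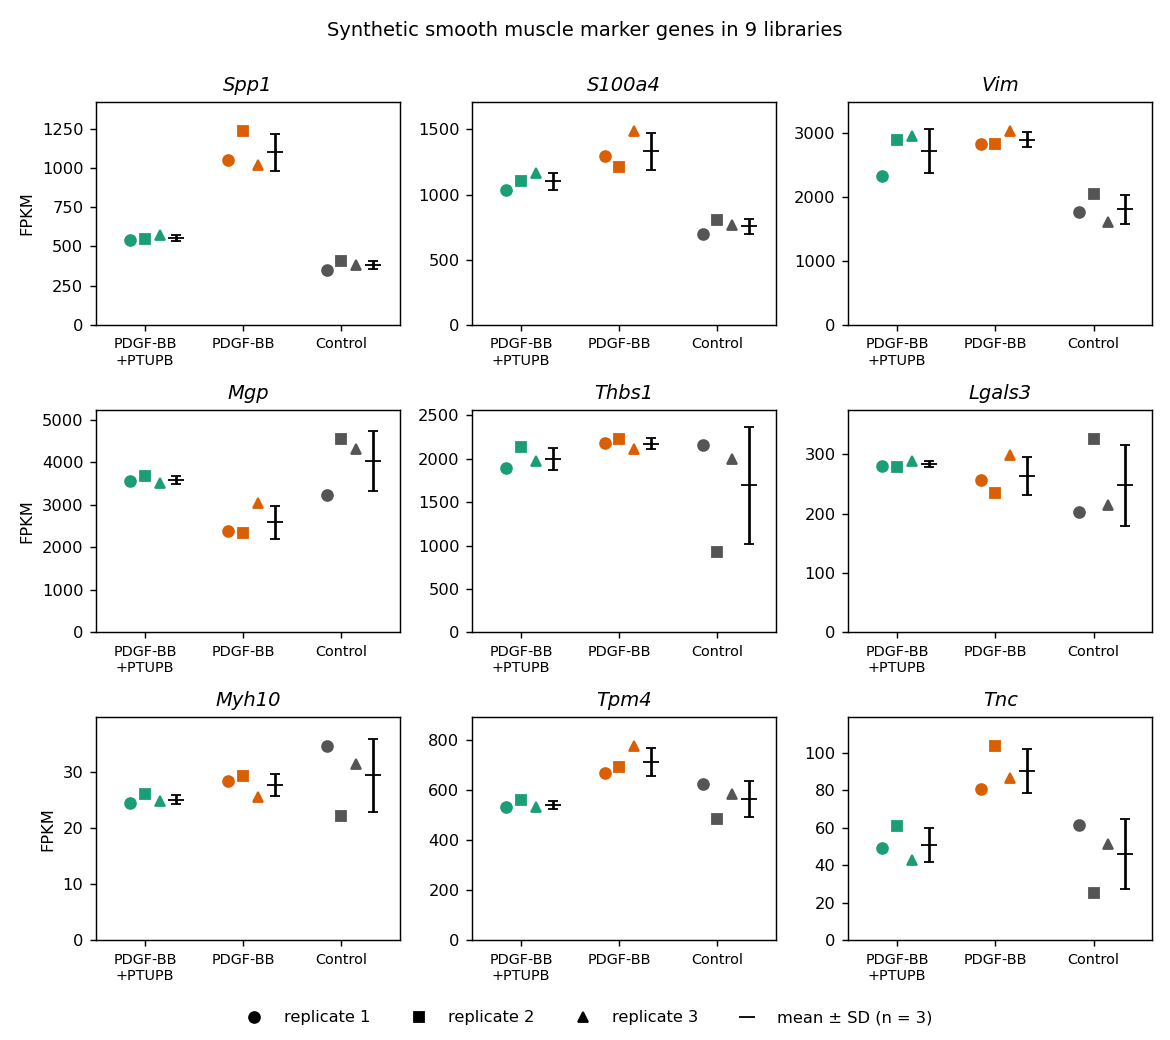
FPKM (linear axis from 0) of the 9 genes in the PDGF-BB+PTUPB, PDGF-BB and Control libraries, with 1 point per library, symbols for the replicate number and bars for mean ± SD (n = 3). Spp1 lay between 1017 and 1235 FPKM in PDGF-BB libraries, above every other library, and Control replicate 2 lay apart for Thbs1 at 926 FPKM and for Tnc at 25.03 FPKM.

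PDGF-BB against Control asks which of these markers the growth factor changed. Spp1, S100a4 and Vim rose and Mgp fell, while Thbs1, Lgals3, Myh10, Tpm4 and Tnc did not pass. That is 3 of 9 genes higher, against 17.3% of all tested genes, and 1 of 9 lower, against 15.6%. Taken in either direction it is 4 of 9 genes called, against 32.8%. The median log2 change of the 9 genes was 0.29, and that of all tested genes was -0.017. Over all genes 1932 were higher and 1745 lower, which became 2409 and 1334 with scaling by library totals alone. Libraries of the groups did not overlap for 6 of the 9 genes, 5 of them higher and 1 lower, nor for 44.6% of all tested genes (22.6% higher and 22.0% lower).

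Spp1 (ENSRNOG00000043451, exonic length 1519 bases) encodes osteopontin, an acidic matrix protein that binds integrins and CD44 and that marks modulated smooth muscle in injured arteries. The table places it on chromosome 14 from 6673686 to 6679901, minus strand. Like the other positions from this table, these are as deposited: the identifiers are rat, whereas the submitters' processing notes name the mouse build mm10. Spp1 read 1049.9, 1235 and 1017 FPKM in PDGF-BB replicates 1 to 3, against 352, 407 and 382 FPKM in Control replicates 1 to 3. The lowest PDGF-BB library stood well above the highest Control library. The change was 1.46 ± 0.09, a 2.76-fold higher level (edgeR adjusted p = 3.68e-06).

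S100a4 (ENSRNOG00000011821, chromosome 2, 189997129 to 189999604, plus strand) encodes a small calcium-binding protein of motile cells. It read 1295, 1213 and 1489 FPKM in PDGF-BB libraries, against 693, 805 and 766 FPKM in Control libraries. The groups were well apart, and the change was 0.75 ± 0.10 (edgeR adjusted p = 2.36e-04). Vim (ENSRNOG00000018087, chromosome 17, 80882666 to 80891212, plus strand) encodes the intermediate filament protein of mesenchymal cells. It read 2829, 2832 and 3038 FPKM with PDGF-BB, against 1768, 2054 and 1609.7 FPKM in Control. Again no library of one group reached the other, and the change was 0.61 ± 0.12 (edgeR adjusted p = 0.00265).

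Mgp (ENSRNOG00000005695, chromosome 4, 170856751 to 170860225, minus strand) encodes a vitamin K-dependent inhibitor of arterial calcification and was the most abundant of the 9 genes in Control. It read 2382, 2335 and 3045 FPKM with PDGF-BB, against 3239, 4561 and 4304 FPKM in Control. The highest PDGF-BB library, replicate 3, came near the lowest Control library, replicate 1, without reaching it. The change was -0.71 ± 0.14 (edgeR adjusted p = 0.00277), opposite in sign to those of Spp1, S100a4 and Vim.

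Tnc (ENSRNOG00000058645, chromosome 5, 79789671 to 79874671, minus strand) encodes tenascin C, a large matrix glycoprotein of injured vessels. It read 80.6, 103.54 and 86.6 FPKM with PDGF-BB, against 61.6, 25.03 and 51.45 FPKM in Control. All PDGF-BB libraries were above all Control libraries, and Control replicate 2 was far below the other Control libraries. The change of 0.90 ± 0.31 missed the threshold (edgeR adjusted p = 0.0556). Without Control replicate 2 it was smaller and passed, at 0.59 (edgeR adjusted p = 0.0225). Tnc passed in 9 of 20 alternatives, among them DESeq2 (0.003), both limma fits, the length correction (1.22, adjusted p = 0.0072) and scaling by library totals (0.97, 0.0372), and over the 20 the adjusted p ran from 0.003 to 0.131.

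Thbs1 (ENSRNOG00000045829, chromosome 3, 109862117 to 109873466, plus strand) encodes thrombospondin 1, a secreted protein that activates latent TGF-beta. It read 2181, 2233 and 2113 FPKM with PDGF-BB, against 2163, 926 and 1993 FPKM in Control. Only Control replicate 2 stood apart, and the other Control libraries lay close to the PDGF-BB libraries. The change was 0.29 ± 0.27 (edgeR adjusted p = 0.445) and became -0.016 without Control replicate 2 (adjusted p = 0.907).

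Tpm4 (ENSRNOG00000015496, chromosome 16, 19385736 to 19399903, minus strand) encodes an actin-binding tropomyosin of the non-muscle cytoskeleton. It read 669, 692 and 775 FPKM with PDGF-BB, against 622, 486 and 584 FPKM in Control. The groups did not overlap, but the change of 0.26 ± 0.11 missed the threshold (edgeR adjusted p = 0.0824). Tpm4 did pass with scaling by library totals (0.34, adjusted p = 0.025) and without Control replicate 1 (0.35, adjusted p = 0.0403), while the change was 0.16 without Control replicate 2 (0.188) and 0.086 with PDGF-BB replicate 3 left out as well (0.345).

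Myh10 (ENSRNOG00000002886, chromosome 10, 55275411 to 55406732, plus strand) encodes the non-muscle myosin once described as the embryonic smooth muscle form. It read 28.4, 29.2 and 25.5 FPKM with PDGF-BB, against 34.6, 22.1 and 31.4 FPKM in Control. The PDGF-BB libraries lay inside the Control range, and the change was -0.16 ± 0.15 (edgeR adjusted p = 0.43). Without Control replicate 2 Myh10 passed as lower, at -0.34 (adjusted p = 0.0104), whereas with a correction for the length trend of each library it was positive, at 0.16 (adjusted p = 0.227).

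Lgals3 (ENSRNOG00000010645, chromosome 15, 24141651 to 24165537, plus strand) encodes a beta-galactoside-binding lectin that also marks smooth muscle cells turned towards a macrophage-like state. It read 256, 235 and 298 FPKM with PDGF-BB, against 203, 326 and 215 FPKM in Control. The groups overlapped, with the highest and the lowest value both in Control. The change was 0.021 ± 0.16 (edgeR adjusted p = 0.933, 95% interval -0.37 to 0.41). It was 0.26 without Control replicate 2 (adjusted p = 0.074), -0.083 without PDGF-BB replicate 3 (0.752) and 0.15 without both (0.0958).

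**Figure D2:**
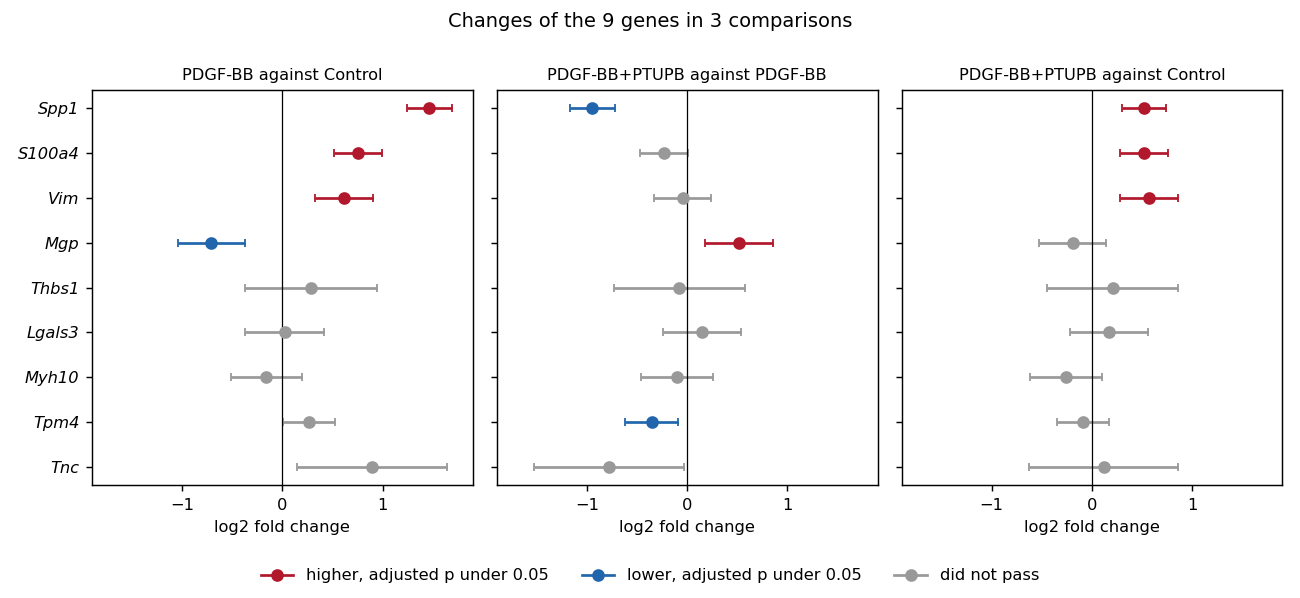
Log2 fold changes (x axis) of the 9 genes from edgeR, with 95% intervals derived from the F value of its test, in 3 panels. The panels are PDGF-BB over Control, then the inhibitor group over PDGF-BB, then the inhibitor group over Control. Red marks genes called higher, blue genes called lower and grey genes that did not pass. Spp1 was at 1.46, -0.95 and 0.52 in these comparisons, while Vim was at 0.61, -0.045 and 0.57.

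Control replicate 2 departed from Control replicates 1 and 3 by -1.20 for Thbs1 (exonic length 3655 bases), -1.21 for Tnc (7213 bases) and -0.61 for Myh10 (7630 bases) on the log2 CPM scale. In the other direction it departed by 0.61 for Lgals3 (1086 bases) and 0.25 for Mgp (676 bases), and by 0.12 for Spp1 (1519 bases). Myh10 is the longest of the 9 genes and yet departed less than Thbs1 and Tnc. In PDGF-BB replicate 3 the departures were 0.38 for Mgp, 0.26 for S100a4 (653 bases) and -0.16 for Myh10, with -0.061 for Tnc. The spread within groups was 0.41 for Thbs1 and 0.45 for Tnc, against 0.095 for Spp1 (pooled SD of log2 CPM over the 3 groups).

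**Figure D3:**
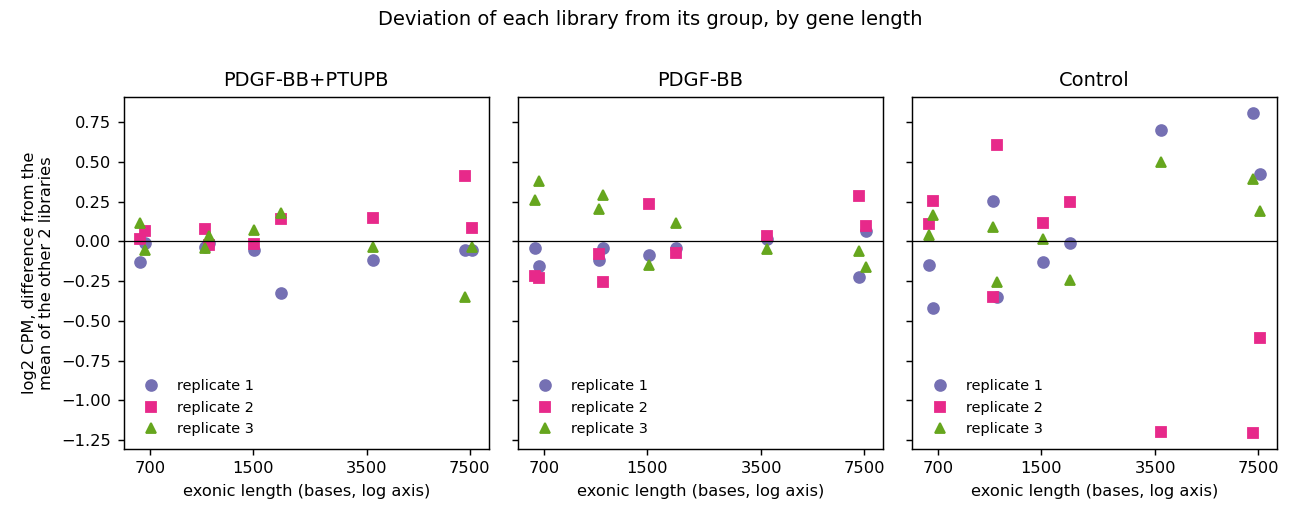
Departure of each library from the mean of the other 2 libraries of its group (log2 CPM, y axis) for the 9 genes by exonic length in bases (log axis), with 1 panel per group and symbols for the replicate. In Control replicate 2 the 3 longest genes stand out, at -1.20 for Thbs1, -1.21 for Tnc and -0.61 for Myh10, and departures in PDGF-BB+PTUPB libraries were smaller, at most 0.41 in size.

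PDGF-BB+PTUPB against PDGF-BB asks what the inhibitor changed in growth factor-treated cells. Spp1 and Tpm4 fell and Mgp rose, and the other 6 genes did not pass. That is 2 of 9 genes lower, against 10.0% of all tested genes, and 1 of 9 higher, against 8.29%. Taken in either direction it is 3 of 9 called, against 18.3%. Over all genes 928 were higher and 1122 lower, or 744 and 1397 with scaling by library totals. The median change was -0.099 for the 9 genes and 0.006 for all tested genes. Libraries of the groups did not overlap for 5 of the 9 genes, 1 of them higher and 4 lower, nor for 40.7% of all tested genes (20.0% higher and 20.7% lower). The comparison shares the PDGF-BB libraries with the one above.

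Spp1 read 539, 549 and 574 FPKM in PDGF-BB+PTUPB replicates 1 to 3, against 1049.9, 1235 and 1017 FPKM in PDGF-BB replicates 1 to 3. The 3 libraries with the inhibitor lay close together and far below those without it. The change was -0.95 ± 0.09, to 0.519 of the PDGF-BB level (edgeR adjusted p = 3.64e-04), and it was called in all 20 alternatives.

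Tpm4 read 530.3, 558 and 531 FPKM with PDGF-BB+PTUPB, against 669, 692 and 775 FPKM with PDGF-BB. The groups did not overlap, and the change was -0.36 ± 0.11 (edgeR adjusted p = 0.0419). The call was lost in 10 of 20 alternatives, among them the replicate block (adjusted p = 0.0679), the length correction (-0.28, adjusted p = 0.138) and leaving out Control replicate 3 or any library of the PDGF-BB or PDGF-BB+PTUPB group (adjusted p up to 0.13).

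Mgp read 3569.97, 3691 and 3511 FPKM with PDGF-BB+PTUPB, against 2382, 2335 and 3045 FPKM with PDGF-BB. All libraries with the inhibitor were above all those without it, and PDGF-BB replicate 3 lay nearest to them. The change was 0.52 ± 0.14 (edgeR adjusted p = 0.0255). The call was lost without PDGF-BB replicate 1 (0.0905) or 2 (0.0797), without PDGF-BB+PTUPB replicate 1 (0.0758), 2 (0.0854) or 3 (0.0595), and with limma (0.0506 and 0.0508).

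Vim read 2334, 2893 and 2956 FPKM with PDGF-BB+PTUPB, against 2829, 2832 and 3038 FPKM with PDGF-BB. The groups overlapped, and the change was -0.045 ± 0.12, with a 95% interval of -0.33 to 0.24 (edgeR adjusted p = 0.83). S100a4 read 1034, 1107 and 1163 FPKM with PDGF-BB+PTUPB, against 1295, 1213 and 1489 FPKM with PDGF-BB. Every library with the inhibitor was below every library without it, but the change of -0.23 ± 0.10 did not pass (edgeR adjusted p = 0.126).

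Tnc read 49.1, 60.9 and 43.0 FPKM with PDGF-BB+PTUPB, against 80.6, 103.54 and 86.6 FPKM with PDGF-BB. The groups did not overlap, and the change of -0.78 ± 0.31 did not pass (edgeR adjusted p = 0.121). Without Control replicate 2, which enters this comparison only through the shared estimate of the spread, the same change had an adjusted p of 0.00641, and over the 20 alternatives the adjusted p ran from 0.00641 to 0.271. Thbs1 read 1889, 2134 and 1972 FPKM with PDGF-BB+PTUPB, against 2181, 2233 and 2113 FPKM with PDGF-BB. Its groups overlapped, with a change of -0.079 ± 0.27 (edgeR adjusted p = 0.872).

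Myh10 read 24.4, 26.0 and 24.7 FPKM with PDGF-BB+PTUPB, against 28.4, 29.2 and 25.5 FPKM with PDGF-BB, a change of -0.099 ± 0.15 (edgeR adjusted p = 0.688). Lgals3 read 281, 279 and 289 FPKM with PDGF-BB+PTUPB, against 256, 235 and 298 FPKM with PDGF-BB, a change of 0.15 ± 0.16 (edgeR adjusted p = 0.577). Both genes overlapped between the groups. With both Control replicate 2 and PDGF-BB replicate 3 left out Lgals3 passed, at 0.25 (adjusted p = 0.00887).

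PDGF-BB+PTUPB against Control asks which markers differed between cells given the growth factor with the inhibitor and cells given DMSO. Spp1, S100a4 and Vim were higher, and 0 of the 9 genes were lower by edgeR, by DESeq2 or at an unadjusted edgeR p under 0.05. In this comparison 1.85% of all tested genes were higher, 0.304% were lower and 2.15% were called. Libraries of the groups did not overlap for 3 of the 9 genes, all 3 higher, nor for 21.5% of all tested genes (12.1% higher and 9.38% lower), and the median change was 0.17 for the 9 genes and -0.010 for all tested genes. The comparison shares its libraries with both others.

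The Spp1 level was 554 ± 18.0 FPKM with PDGF-BB+PTUPB and 380.3 ± 27.6 FPKM in Control (SD, n = 3 each), and the lowest library with the inhibitor was above the highest Control library. The change was 0.52 ± 0.09 (edgeR adjusted p = 0.0133). S100a4 averaged 1101 ± 64.7 FPKM with PDGF-BB+PTUPB and 755 ± 56.8 FPKM in Control, a change of 0.52 ± 0.10 (edgeR adjusted p = 0.0194). Vim averaged 2728 ± 343 FPKM with PDGF-BB+PTUPB and 1811 ± 225 FPKM in Control, a change of 0.57 ± 0.12 (edgeR adjusted p = 0.0336). The 3 calls depended on which libraries were kept: 0 of the 9 genes were called without Control replicate 3, without PDGF-BB+PTUPB replicate 2 or without PDGF-BB+PTUPB replicate 3, and 1 without Control replicate 1. All 3 calls held without Control replicate 2, without PDGF-BB replicate 3 and without PDGF-BB+PTUPB replicate 1, and Vim alone was lost without PDGF-BB replicate 1 or 2. With the replicate block 2 were called, and Vim was lost (adjusted p up to 0.184 over the alternatives). With the replicate block and the length correction together 2 were called, and Spp1 was lost (adjusted p up to 0.0959 over the alternatives).

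Mgp averaged 3591 ± 91.9 FPKM with PDGF-BB+PTUPB and 4034 ± 701 FPKM in Control, with overlapping libraries and a change of -0.19 ± 0.14 (edgeR adjusted p = 0.609). Tpm4 averaged 539.9 ± 15.8 FPKM with PDGF-BB+PTUPB and 564 ± 70.4 FPKM in Control (-0.092 ± 0.11, edgeR adjusted p = 0.778), and passed as lower at -0.20 when both Control replicate 2 and PDGF-BB replicate 3 were left out (adjusted p = 0.0483). Tnc averaged 51.0 ± 9.08 FPKM with PDGF-BB+PTUPB and 46.0 ± 18.9 FPKM in Control (0.12, 95% interval -0.63 to 0.86), and turned to -0.19 without Control replicate 2. Thbs1 averaged 1998 ± 125 FPKM with PDGF-BB+PTUPB and 1694 ± 671 FPKM in Control (0.21 ± 0.27), and turned to -0.095 without Control replicate 2. Myh10 averaged 25.1 ± 0.835 FPKM with PDGF-BB+PTUPB and 29.4 ± 6.47 FPKM in Control (-0.26 ± 0.15, edgeR adjusted p = 0.497), and without Control replicate 2 it passed as lower, at -0.44 (adjusted p = 0.0225). Lgals3 averaged 283 ± 5.02 FPKM with PDGF-BB+PTUPB and 248 ± 68.3 FPKM in Control (0.17 ± 0.16, edgeR adjusted p = 0.726). Without Control replicate 2 the Lgals3 change was 0.40 (adjusted p = 0.0605), and with PDGF-BB replicate 3 left out as well it passed (0.00131).

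Ratios within a library compare a synthetic gene with a contractile one without any scaling between libraries. Non-muscle myosin Myh10 to smooth muscle myosin Myh11 stood at 5.56, 5.86 and 5.99 in PDGF-BB+PTUPB libraries and at 7.75, 10.7 and 9.19 in PDGF-BB libraries, against 5.33, 4.26 and 5.01 in Control libraries. No 2 groups overlapped. The log2 ratio was 0.92 higher with PDGF-BB than in Control, 0.66 lower with PDGF-BB+PTUPB than with PDGF-BB (difference -0.656), and 0.26 higher with PDGF-BB+PTUPB than in Control. The level of Myh10 itself did not pass in any of these comparisons with all 9 libraries, whereas Myh11 read 4.40, 4.44 and 4.13 FPKM with PDGF-BB+PTUPB, 3.66, 2.73 and 2.77 FPKM with PDGF-BB and 6.49, 5.19 and 6.28 FPKM in Control. Myh11 changed by -1.04 ± 0.14 with PDGF-BB (edgeR adjusted p = 2.34e-04) and by 0.54 ± 0.14 with the inhibitor against PDGF-BB (edgeR adjusted p = 0.0189), a call lost without PDGF-BB replicate 2 or PDGF-BB+PTUPB replicate 1 or 2 (adjusted p up to 0.0818). With PDGF-BB+PTUPB against Control its change was -0.50 ± 0.13 (edgeR adjusted p = 0.0972), and it passed with DESeq2 (0.0336), at -0.60 without Control replicate 2 (0.0336) and with both libraries left out (0.00335).

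Tpm4 to Tpm1, the tropomyosin gene that includes the smooth muscle form, stood at 3.43, 3.75 and 3.75 with PDGF-BB+PTUPB and at 4.03, 4.24 and 4.04 with PDGF-BB, against 3.03, 2.90 and 3.08 in Control. Tpm1 itself read 155, 149 and 142 FPKM with PDGF-BB+PTUPB, 166, 163 and 192 FPKM with PDGF-BB and 206, 168 and 190 FPKM in Control. It was thus lowest in the inhibitor group, so the ratio moved towards Control while the Tpm1 level did not. Spp1 to Acta2 stood at 0.949, 0.932 and 1.07 with PDGF-BB+PTUPB and at 2.27, 2.72 and 1.95 with PDGF-BB, against 0.451, 0.732 and 0.595 in Control. For these ratios too no groups overlapped. The log2 ratio of Spp1 to Acta2 was 1.98 higher with PDGF-BB than in Control and changed by -1.22 with the inhibitor against PDGF-BB. In each of the 9 tests of these ratios the two-sided exact permutation p was 0.1 (0.1 also after Benjamini-Hochberg adjustment over the 9), the smallest that 3 against 3 libraries can give. Tropomyosins and myosin heavy chains have similar sequences, and how reads shared between such genes were counted is not given in the sources used here.

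**Figure D4:**
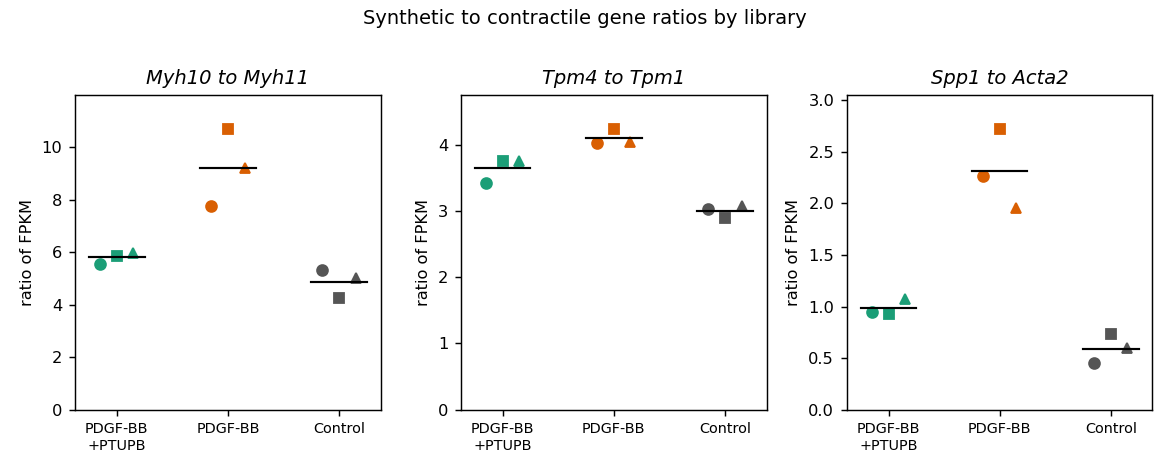
Ratios of FPKM within each library (linear axes from 0) for Myh10 to Myh11, Tpm4 to Tpm1 and Spp1 to Acta2 in PDGF-BB+PTUPB, PDGF-BB and Control libraries. Circles, squares and triangles are replicates 1, 2 and 3 and lines are group means, and the PDGF-BB libraries lay highest in each panel (7.75 to 10.7 for Myh10 to Myh11).

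The contractile list, the counterpart of these markers, had 15 of 18 genes tested. With PDGF-BB 6 of the 15 were lower, against 15.6% of all tested genes, and 1 was higher, against 17.3% (median change -0.18). These shares over all genes, 32.8% in either direction, apply to each list below. For the inhibitor group against PDGF-BB they were 10.0% lower and 8.29% higher, and against Control 0.304% lower and 1.85% higher. Acta2 read 464, 454 and 521 FPKM with PDGF-BB, against 779.9, 556 and 642 FPKM in Control (-0.53 ± 0.13, edgeR adjusted p = 0.00797), and the myosin light chain kinase Mylk and the integrin subunit Itga8 changed by -0.99 ± 0.10 and -0.94 ± 0.21. The smooth muscle marker Lmod1 was also lower (-0.40 ± 0.13, edgeR adjusted p = 0.0347), a call lost in 11 of 20 alternatives. Synpo2, an actin-binding protein, was the gene that rose (0.51 ± 0.14), a call lost without Control replicate 1. Tagln (0.28 ± 0.13, edgeR adjusted p = 0.125) and calponin 1, Cnn1, did not pass, the second at 82.4, 84.0 and 90.6 FPKM with PDGF-BB, against 76.4, 48.6 and 70.45 FPKM in Control. Set against PDGF-BB, the inhibitor group had 3 of the 15 higher (Myh11, Mylk at 0.71 ± 0.10 and Itga8 at 0.72 ± 0.21) and 0 lower by edgeR and DESeq2, with 1 lower at an unadjusted edgeR p under 0.05. The Itga8 call was lost in 10 of 20 alternatives. Against Control 0 of the 15 passed with PDGF-BB+PTUPB by edgeR, while DESeq2 called 2 lower and 6 had an unadjusted edgeR p under 0.05 (1 higher and 5 lower). Acta2 passed when both Control replicate 2 and PDGF-BB replicate 3 were left out, as higher in the inhibitor group than with PDGF-BB (0.35, edgeR adjusted p = 0.00936) and as lower than in Control (-0.37, adjusted p = 0.0117).

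Of 27 other genes linked to the synthetic or modulated state 22 were tested, and with PDGF-BB 6 were higher, against 17.3% of all tested genes, and 4 lower, against 15.6%, with a median change of 0.022. Timp1, an inhibitor of matrix metalloproteinases, read 1267 ± 148 FPKM with PDGF-BB and 490.5 ± 59.8 FPKM in Control (1.30 ± 0.11, edgeR adjusted p = 2.03e-05). Collagen gene Col3a1 changed in the same direction (1.22 ± 0.15). The metalloproteinases Mmp14 (-1.31 ± 0.13) and Mmp2 (-1.20 ± 0.14) changed the other way. In the inhibitor group, set against PDGF-BB, 3 of the 22 were lower and 3 higher: Timp1 changed by -0.55 ± 0.11, Col3a1 by -0.87 ± 0.15, Mmp14 by 0.66 ± 0.12 and Mmp2 by 0.69 ± 0.14, with the metalloproteinase Mmp3 (-1.60 ± 0.35) and the adhesion molecule Icam1 (0.30 ± 0.09) as the remaining genes. With PDGF-BB+PTUPB against Control Timp1 was higher (0.75 ± 0.11, edgeR adjusted p = 0.006) and Mmp14 lower (-0.65 ± 0.12), the Mmp14 call being lost without any 1 of the PDGF-BB+PTUPB libraries. In that comparison DESeq2 called 2 of the 22 higher and 4 lower, and at an unadjusted edgeR p under 0.05 there were 4 higher and 5 lower.

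Of 10 receptor genes for osteopontin and tenascin C 6 were tested, and with PDGF-BB 2 were higher and 1, Itga8, lower, 3 of 6 against 32.8% of all tested genes. Itga5, an integrin subunit that binds RGD-containing matrix proteins, read 72.0 ± 4.05 FPKM with PDGF-BB and 46.1 ± 1.19 FPKM in Control (0.57 ± 0.07, edgeR adjusted p = 1.50e-04). Cd44, which binds osteopontin and hyaluronan, changed by 0.32 ± 0.09, a call lost without Control replicate 1 or 3 (adjusted p up to 0.0569). With the inhibitor against PDGF-BB Itga5 changed by -0.51 ± 0.07 and Itga8 by 0.72. Against Control 0 of the 6 passed with PDGF-BB+PTUPB by edgeR or by DESeq2, and 0 had an unadjusted edgeR p under 0.05. The most abundant receptor subunit, Itgb1, read 537 ± 11.2 FPKM with PDGF-BB+PTUPB, 633 ± 41.4 FPKM with PDGF-BB and 504 ± 43.7 FPKM in Control, and its smallest edgeR adjusted p was 0.0561, for PDGF-BB against Control.

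In the list of thrombospondins and their receptors 9 of 11 genes were tested. With PDGF-BB 2 were higher and 2 lower, 4 of 9 against 32.8% of all tested genes: the heparan sulfate proteoglycan Sdc1 (0.97 ± 0.08, edgeR adjusted p = 1.57e-05) and the thrombospondin receptor Cd47 (0.37 ± 0.09) rose, and the endocytic receptor Lrp1 (-1.08 ± 0.13) and the proteoglycan Sdc4 (-0.47 ± 0.08) fell. Under the inhibitor, against PDGF-BB, Lrp1 changed by 0.73 ± 0.13, Sdc1 by -0.76 ± 0.08 and Cd47 by -0.31 ± 0.09, the last lost in 5 of 20 alternatives. Against Control 0 of the 9 passed with PDGF-BB+PTUPB by edgeR or DESeq2, and 3 had an unadjusted edgeR p under 0.05.

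Around Mgp, 13 of 19 regulators of mineralization were tested. With PDGF-BB 2 were higher and 4 lower, 6 of 13 against 32.8% of all tested genes. Enpp1, which makes the mineralization inhibitor pyrophosphate, read 31.95 ± 5.07 FPKM with PDGF-BB and 6.09 ± 0.258 FPKM in Control (2.32 ± 0.16, edgeR adjusted p = 7.22e-06). Gas6, like Mgp a vitamin K-dependent protein, read 163 ± 15.4 FPKM with PDGF-BB and 398 ± 35.5 FPKM in Control (-1.35 ± 0.10), and the osteogenic transcription factor Runx2 changed by 0.33 ± 0.08. The remaining lower genes were Alpl, the alkaline phosphatase that breaks down pyrophosphate (-1.08 ± 0.30, edgeR adjusted p = 0.0186), the growth factor gene Bmp4 (-0.71 ± 0.18, edgeR adjusted p = 0.0137) and Mgp itself. Alpl was near the filter of 1 FPKM, at 0.713 ± 0.273 FPKM with PDGF-BB and 1.43 ± 0.304 FPKM in Control. PDGF-BB+PTUPB libraries had higher Gas6 and Mgp than PDGF-BB libraries (Gas6 1.01 ± 0.10) and lower Enpp1 (-1.50 ± 0.15). Against Control Enpp1 was the 1 gene called by edgeR with PDGF-BB+PTUPB (0.82 ± 0.16), lost in 6 of 20 alternatives, while DESeq2 called 1 higher and 2 lower.

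Among S100 genes 5 of 8 tested were higher with PDGF-BB, against 17.3% of all tested genes, and 0 lower by edgeR and DESeq2 (1 lower at an unadjusted edgeR p under 0.05), with a median change of 0.61. Besides S100a4 they included S100a10 (1.04 ± 0.15), an annexin partner, S100a11 (0.73 ± 0.12), S100a6 (0.62 ± 0.10) and S100a13 (0.60 ± 0.21). Between the inhibitor group and PDGF-BB S100a10 alone passed (-0.69 ± 0.15, edgeR adjusted p = 0.0105), a call lost when both Control replicate 2 and PDGF-BB replicate 3 were left out (0.0741). Against Control S100a4 alone passed with PDGF-BB+PTUPB by edgeR, and DESeq2 called 3 S100 genes. Among galectins Lgals1, not Lgals3, was the gene that rose with PDGF-BB, at 785 ± 77.4 FPKM with PDGF-BB and 248 ± 14.5 FPKM in Control (1.59 ± 0.13, edgeR adjusted p = 1.57e-05). Lgals1 changed by -0.74 ± 0.13 with the inhibitor against PDGF-BB and was higher against Control (0.85 ± 0.13), while Lgals9 changed by -0.54 ± 0.13 with PDGF-BB and by 0.71 ± 0.13 with the inhibitor.

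Of 4 tropomyosin genes Tpm3 alone passed with PDGF-BB, at 149 ± 19.0 FPKM with PDGF-BB and 90.4 ± 4.76 FPKM in Control (0.65 ± 0.10, edgeR adjusted p = 5.83e-04), and Tpm3 (-0.60 ± 0.10) and Tpm4 were lower with the inhibitor against PDGF-BB. Of 7 tested myosin subunits and the kinase Mylk, 2 were higher with PDGF-BB, the regulatory light chain Myl12a (0.55 ± 0.10) and the light chain Myl6 (0.26 ± 0.09, lost in 13 of 20 alternatives), and 2 lower, Myh11 and Mylk. Myl12a changed by -0.33 ± 0.10 with the inhibitor against PDGF-BB, lost in 8 of 20 alternatives.

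The 5 genes whose course over the 9 libraries lay nearest to that of Spp1, out of 8053 genes with a mean of at least 5 FPKM, were Nasp, Prim1, H2ax, Vrk1 and Cdc25c. The measure was the root mean square difference of centred log2 CPM, at 0.115 for Nasp and 0.135 for Cdc25c, and it is a description over libraries that share groups and depth. Nasp encodes a histone chaperone, Prim1 a subunit of DNA primase, H2ax a histone variant, Vrk1 a nuclear kinase and Cdc25c a phosphatase that admits cells to mitosis. Their levels were far below that of Spp1: Nasp averaged 11.5 FPKM with PDGF-BB+PTUPB, 21.8 FPKM with PDGF-BB and 6.86 FPKM in Control. Within the 9 genes the pair nearest to each other was S100a4 and Vim (0.128). The summed FPKM of 10 proliferation genes was 172 to 217 with PDGF-BB+PTUPB, 372 to 435 with PDGF-BB and 83.3 to 106 in Control, the same order of groups as Spp1. All 10 were higher with PDGF-BB than in Control, 8 were lower with the inhibitor than with PDGF-BB, and their part in the Spp1 result was not tested.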

How the data were processed

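RNA-seq values of 9 libraries were used. The submitters' processing notes name cutadapt 1.9.1, HISAT2 2.0.1 and HTSeq 0.6.1. The authors deposited an expected count per gene, of which 978 genes had a value that is not whole. How those arose, and the strand used, are not given in the sources used here. The notes name the build mm10, while all 32623 identifiers are rat. The authors also deposited FPKM, and FPKM recomputed from counts and exonic lengths lay within 0.006 of them for 100% of values.

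Counts were rounded to whole numbers. The 11197 genes that reached an FPKM of 1 in 3 or more libraries were fitted with edgeR 4.0.16 in R 4.3.3: TMM scaling, a robust quasi-likelihood test with group as the sole factor, 6 residual degrees of freedom, biological coefficient of variation 0.137. The scripts were tested on simulated data. Alternatives were RLE and library-total scaling, other filters, DESeq2 1.42.0, limma 3.58.1 on log2(FPKM + 1) and log2(FPKM + 0.1), a replicate block, an offset from a lowess trend of deviation on exonic length, and leaving out libraries. Gene names in lists followed a rule: up to 4 called genes by smallest p in each comparison, or, where no gene passed, the 2 with the highest FPKM; always Acta2, Myh11, Tagln and Cnn1; and the 5 genes nearest to Spp1. Some genes that the rule names are not described, and Alpl, Bmp4, S100a13, Icam1, Mmp3 and Sparc were named after their values were seen. The members and lists were chosen with earlier results of these data known. The SE was derived as the size of the log2 change divided by the square root of the F value of the edgeR test. The 95% intervals used this SE and a t quantile on 6 degrees of freedom, so an interval and its p-value can disagree near the threshold. Intervals and floors cover counting error or the spread between libraries only.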

Additional observations from a re-analysis of the deposited data

How the results depend on the processing

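The counts of called genes among the 9 were 4 for PDGF-BB against Control, 3 for PDGF-BB+PTUPB against PDGF-BB, and 3 for PDGF-BB+PTUPB against Control. In this order, leaving out 1 library gave 4 to 6, 1 to 4 and 0 to 4, and over all genes 2755 to 3883, 1017 to 2474 and 89 to 372 calls (3677, 2050 and 241 with all libraries). With both Control replicate 2 and PDGF-BB replicate 3 left out, the counts were 5, 5 and 6 for the 9 genes, and over all genes 4316 for PDGF-BB against Control (2123 higher and 2193 lower), 2902 for PDGF-BB+PTUPB against PDGF-BB and 1500 for PDGF-BB+PTUPB against Control. DESeq2 called 441 genes in the last comparison. Spp1, S100a4, Vim and Mgp kept their calls for PDGF-BB against Control in all 20 alternatives. The cause of the changes was not tested.

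Signs turned for genes that had not passed. For PDGF-BB against Control, the length offset gave -0.129 for Lgals3 and 0.163 for Myh10 (-0.119 and 0.167 with the replicate block as well). Without Control replicate 2 and PDGF-BB replicate 3 Thbs1 read -0.001. Leaving out 1 library gave -0.094 to 0.255 for Lgals3 and -0.016 to 0.512 for Thbs1. For PDGF-BB+PTUPB against PDGF-BB, Tagln read 0.054 with the length offset, 0.059 with the replicate block added and 0.077 without both libraries. Leaving out 1 library gave -0.070 to 0.077 for Tagln and -0.105 to 0.055 for Vim. For PDGF-BB+PTUPB against Control, leaving out both libraries gave -0.095 for Thbs1, -0.186 for Tnc and -0.103 for Cnn1. Leaving out 1 library gave -0.095 to 0.433, -0.187 to 0.396 and -0.104 to 0.220 for the same genes. The ratios kept their direction in every alternative run.

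For libraries with the same replicate number, deviations from the group means correlated at -0.238 to 0.177. For different numbers the range was -0.231 to 0.231. These values cannot show whether libraries shared a culture or a batch. With the replicate block 4, 2 and 2 of the 9 genes and 3305, 1610 and 172 of all genes were called. At the depth here the 9 genes were far above the level of 3 counts (0.177 to 0.236 CPM), and the number of libraries limits the precision.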

Other observations

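Other filament and matricellular genes are given here beside the markers. Of 5 tested intermediate filament genes 4 were higher with PDGF-BB, against 17.3% of all tested genes, and 0 were lower by edgeR, by DESeq2 or at an unadjusted edgeR p under 0.05. Besides Vim the 4 were the nuclear lamins. Lmnb1 read 20.2 ± 0.439 FPKM with PDGF-BB and 4.95 ± 1.11 FPKM in Control (log2 change 1.96 ± 0.15, edgeR adjusted p = 1.25e-05), and Lmna and Lmnb2 changed by 1.00 ± 0.11 and 1.40 ± 0.22. With the inhibitor against PDGF-BB Lmna (-0.74 ± 0.11) and Lmnb1 (-0.88 ± 0.15) were lower, while Vim was not called. Of 12 tested matricellular genes, a list that also holds Spp1, Thbs1 and Tnc, Spp1 was higher and 2 were lower with PDGF-BB, 3 of 12 against 32.8% of all tested genes, which is no more than the background. Ccn3, a secreted regulator of smooth muscle growth, read 264 ± 41.2 FPKM with PDGF-BB and 804 ± 143 FPKM in Control (-1.68 ± 0.18, edgeR adjusted p = 1.10e-04), and Ccn5 changed by -1.07 ± 0.11. With the inhibitor against PDGF-BB Ccn3 (1.54 ± 0.18), Ccn5 (1.18 ± 0.11) Ccn2 (0.48 ± 0.13, lost in 4 of 20 alternatives) and Sparc (0.28 ± 0.08) were higher. Spp1 was the 1 matricellular gene called against Control with PDGF-BB+PTUPB.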
